A study of Homo sapiens with 38 samples.

Results

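The 34 genes described here make the proteins that start and carry out DNA replication. They were chosen by name, with no measured value in the rule: 34 of the 43412 gene symbols of a count table made from H9, a long-used line of human embryonic stem cells, and all 34 were expressed highly enough to be tested. WNT signalling was switched on in 3 ways. In the bcat arm, H9 cells with a stable doxycycline-controlled transgene for deltaN90 beta-catenin, a shortened form that resists destruction, were kept in 1 µg/ml doxycycline for 0, 8, 16, 24, 48 or 72 h. In the CHIR arm H9 cells were kept in 10 µM CHIR99021, an inhibitor of the kinase GSK3, for the same times. In the Wnt3a arm they were kept in 240 ng/ml recombinant Wnt3a for 0, 8, 24, 48, 72, 96 or 120 h. Cells were plated at 100% confluency 16 h before treatment and left the stem cell medium mTeSR1 for RPMI1640 with B27 without vitamin A when treatment began. There was no culture with the new medium alone, so every change from 0 h joins treatment, medium and time. Each of the 19 groups had 2 biological replicates, and RNA came from whole cultures. Fewer cells in S phase and less RNA per cell therefore cannot be told apart.

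Replication is prepared in G1. E2F1 and E2F2 are transcription factors that switch on S phase genes, and CCNE1 and CCNE2 are the E-type cyclins that activate CDK2. ORC1, CDC6 and CDT1 load the ring of MCM2 to MCM7 onto origins, a step called licensing. CDC45, the GINS proteins and MCM10 then turn that ring into a running helicase, after which polymerases alpha, delta and epsilon copy DNA with the help of the PCNA clamp and its RFC loader. FEN1 and LIG1 join Okazaki fragments, CHAF1A and CHAF1B place new histones, SLBP handles the messenger RNA of replication histones, and RRM1, RRM2 and TYMS supply nucleotides. Human embryonic stem cells are known for a short G1, so that a large share of a culture is in S phase at any time.

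Promoters of this family are known to bind E2F factors. The 250 bases before the start site were searched on both strands for the letters TTTCCCGC, TTTCGCGC, TTTGCCGC or TTTGGCGC, which can overlap one another. At least 1 was present for 13 of the 31 members with a promoter in RefSeq's GRCh38.p14 table (41.9%), against 4.6% of 15843 protein-coding and 3.4% of 27305 RefSeq genes. The 13 were E2F1, E2F2, CDT1, MCM3, MCM6, MCM7, GINS2, POLA1, POLA2, POLE, PCNA, LIG1 and TYMS. Another motif, the letters TTTGAA of the CHR element of mitotic genes, occurred in 1 of 31 members (3.23%) and in 14.2% of the protein-coding genes. A match is a description of letters and not a site. The following 80-base stretches, 5′ to 3′ on the gene's strand, carry the match in capitals and are shown because these 5 genes appear among the largest or most unusual changes below.
E2F1: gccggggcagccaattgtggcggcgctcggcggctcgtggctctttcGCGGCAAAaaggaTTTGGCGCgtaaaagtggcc
E2F2: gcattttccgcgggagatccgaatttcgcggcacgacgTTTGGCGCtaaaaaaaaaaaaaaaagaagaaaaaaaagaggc
MCM6: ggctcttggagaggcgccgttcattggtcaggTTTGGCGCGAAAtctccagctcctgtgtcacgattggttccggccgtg
PCNA: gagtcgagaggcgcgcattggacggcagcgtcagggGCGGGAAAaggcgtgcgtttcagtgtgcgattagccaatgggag
POLA1: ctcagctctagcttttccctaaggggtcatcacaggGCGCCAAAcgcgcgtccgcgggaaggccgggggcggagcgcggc
They lie at chr20:33686386-33686465 (minus strand) for E2F1, chr1:23531234-23531313 (minus strand) for E2F2, chr2:135876486-135876565 (minus strand) for MCM6, chr20:5126638-5126717 (minus strand) for PCNA and chrX:24693745-24693824 (plus strand) for POLA1. The E2F1 stretch holds 2 matches that do not touch, one of them on the opposite strand, and in MCM6 2 matches on opposite strands overlap. For contrast, GINS1, whose response differed most between the bcat and CHIR arms at 8 h, and CHAF1A had no match in the window.
GINS1: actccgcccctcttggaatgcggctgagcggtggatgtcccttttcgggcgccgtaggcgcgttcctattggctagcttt
CHAF1A: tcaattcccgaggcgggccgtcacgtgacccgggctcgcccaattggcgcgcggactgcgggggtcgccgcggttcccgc
These lie at chr20:25407593-25407672 and chr19:4402560-4402639, both on the plus strand.

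Depth after rescaling ran from 2.45 M to 65.7 M estimated counts per library, with a median of 19.0 M. At Wnt3a 72 h both replicates held the same values and counted as 1 library, so that group has n = 1. Libraries that stood apart were Wnt3a 0 h replicate 1 by its depth of 2.45 M, and bcat 0 h replicate 1, 24 h replicate 1 and 48 h replicate 2 by ribosomal RNA shares of 34.04, 60.3 and 60.2%, against a median of 5.13% over all libraries. Mitochondrial transcripts held 0.369 to 1.55% of counts in the bcat arm, 7.68 to 14.7% in the CHIR arm and 6.77 to 16.6% in the Wnt3a arm. Of 10 markers of pluripotent stem cells, 9 fell at CHIR 48 h, 7 at Wnt3a 96 h and 9 at bcat 72 h against the 0 h of each arm. Of all genes 18.1, 21 and 13.6% fell there. The 6 endoderm markers all rose at Wnt3a 72, 96 and 120 h, where 8.43, 18.8 and 12.2% of all genes rose. Below, expression is in CPM (counts scaled to library size) after TMM scaling, in replicate order, and log2 changes carry their standard error. Rose and fell mean an adjusted p under 0.05 in edgeR's quasi-likelihood test over all 24304 genes tested (Benjamini-Hochberg). Summed endoderm markers were at 273 and 241 CPM at CHIR 48 h, beside 250 and 172 CPM at Wnt3a 96 h. Summed mesoderm markers were at 387 and 334 CPM at CHIR 72 h and 144 and 191 CPM at bcat 72 h. In the Wnt3a arm they reached at most 21.5 CPM.

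Cultures at 0 h already differed between the arms. The untreated bcat cultures had lower levels of many replication genes than the untreated CHIR cultures: 16 of 34 members were lower and 1 higher, against 9.6% and 6.06% of all genes tested, and the members' summed level was 2454 ± 232 CPM at bcat 0 h, 3346 ± 56.2 CPM at CHIR 0 h and 3590 ± 591 CPM at Wnt3a 0 h (SD, n = 2 each). All libraries at bcat 0 h lay below all those of the other 0 h groups for 23 members (67.6%), a pattern that 18.9% of all genes showed. RRM2, a subunit of ribonucleotide reductase, had 67.9 and 83.2 CPM at bcat 0 h, against 133 and 143 CPM at CHIR 0 h (log2 difference −0.85 ± 0.16, adjusted p = 0.00024). MCM7 stood at 185 and 218 CPM at bcat 0 h, against 313 and 328 CPM at CHIR 0 h (−0.66 ± 0.10, adjusted p = 2.2e-05). The exception was POLA1, the catalytic subunit of polymerase alpha, with 139 and 106 CPM at bcat 0 h, against 65.4 and 66.4 CPM at CHIR 0 h (0.88 ± 0.13, adjusted p = 1.7e-05). None of these 3 genes had overlapping groups. Of the 17 calls, 8 held with each of the 4 libraries left out in turn: CDC6, MCM2, MCM7, GINS1, MCM10, POLA1, PCNA and RRM2. The count was 9 without bcat 0 h replicate 1 and 10 without CHIR 0 h replicate 2. Every bcat change from 0 h below uses these low 0 h cultures.

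**Figure D1:**
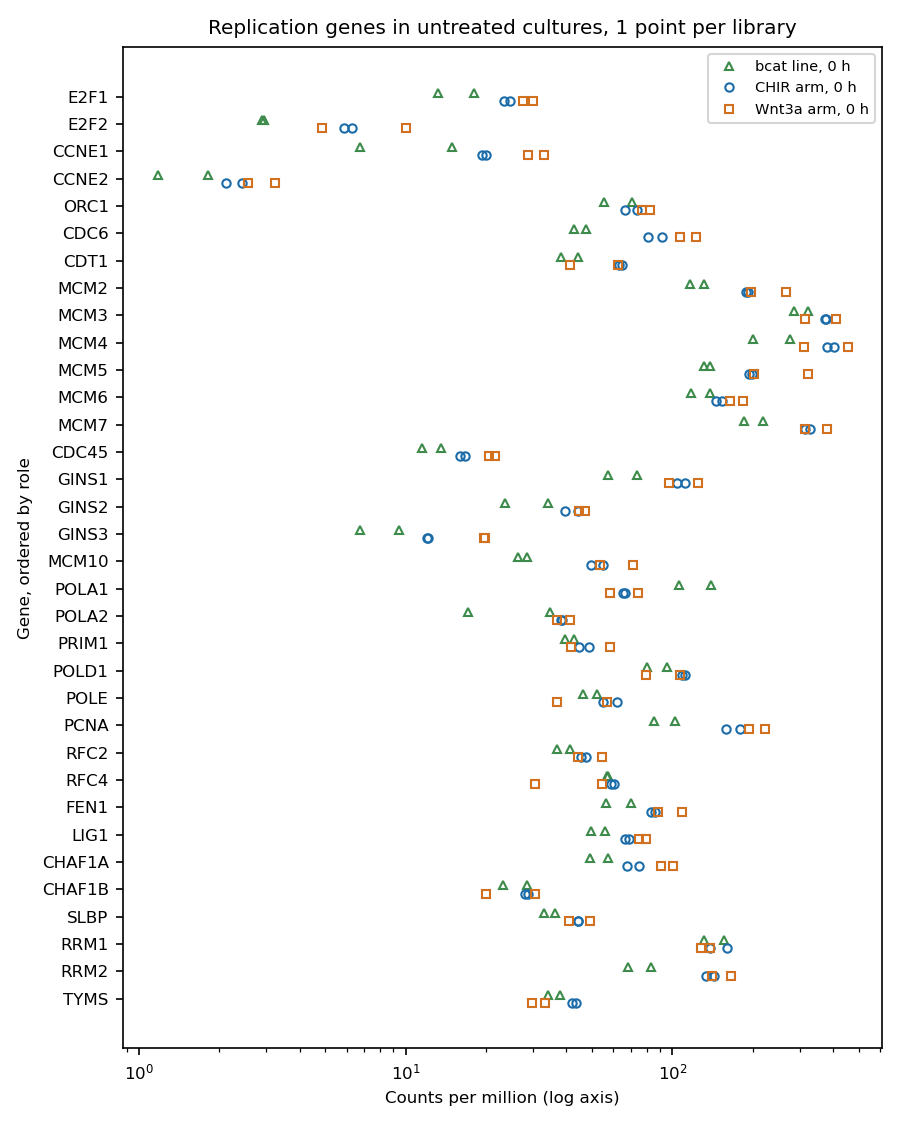
Level of each member in the untreated libraries of the 3 arms, in CPM on a log axis, with 1 point per library (triangles bcat 0 h, circles CHIR 0 h, squares Wnt3a 0 h). For 23 of the 34 genes the bcat triangles lie below all other points, and for POLA1 they lie above. Levels of different genes are not per length and are not to be compared.

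In the bcat arm the replication genes rose within 8 h, were closer to their 0 h level at 16 and 24 h, and rose again by 48 h. At 8 h 24 of 34 rose and 0 fell, against 10.7% and 8.01% of all genes: 4 of 4 genes of initiation control, 6 of 9 of licensing, 5 of 5 of helicase activation, 4 of 8 polymerase, clamp and loader genes, 4 of 5 of joining and nucleosome assembly, and 1 of 3 of nucleotide supply. At 16 h 15 rose (6.23% of all genes), at 24 h 12 (6.87%), at 48 h 31 (11.1%) and at 72 h 25 (13.6%), and 0 fell at any of these times (4.69, 5.95, 10.1 and 13.6% of all genes fell). The members' median log2 changes were 0.74, 0.42, 0.39, 0.73 and 0.56 at the 5 times, where the median of all genes lay between 0.03 and 0.09. At an unadjusted p under 0.05, 1 member was lower at 8 h and 0 later. DESeq2 called 1 lower at 8 h and 0 later. The summed level of the members was 2454, 3703, 3224, 3027, 4091 and 3618 CPM at 0, 8, 16, 24, 48 and 72 h. All libraries at 8 h lay above all those at 0 and 16 h for 18 members (52.9%), a pattern of 14.2% of all genes.

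These counts lean on the 0 h libraries to unequal degrees. At 8 h 17 of the 24 calls, at 48 h 22 of 31 and at 72 h 14 of 25 held whichever library of the groups was left out. At 16 h only MCM10 and RRM2 did, and at 24 h only E2F1. Without bcat 0 h replicate 1 the counts were 2 at 16 h, 1 at 24 h and 15 at 72 h. They were 6 and 7 at 16 h without 16 h replicate 1 or 2, 3 and 5 at 24 h without 24 h replicate 1 or 2, and 15 at 72 h without 72 h replicate 1. With the 4 libraries that stood apart all left out, the early rise held for the same genes at 8 h. Only 0 h replicate 1 among them enters that comparison, so this largely repeats the run without that library. At 24 h the setting left 1 library in each group, and the call of E2F1 was lost. Ribosomal RNA held 34.04 and 5.77% of counts at 0 h and 15.9 and 18.6% at 8 h, and its part in the change was not tested.

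**Figure D2:**
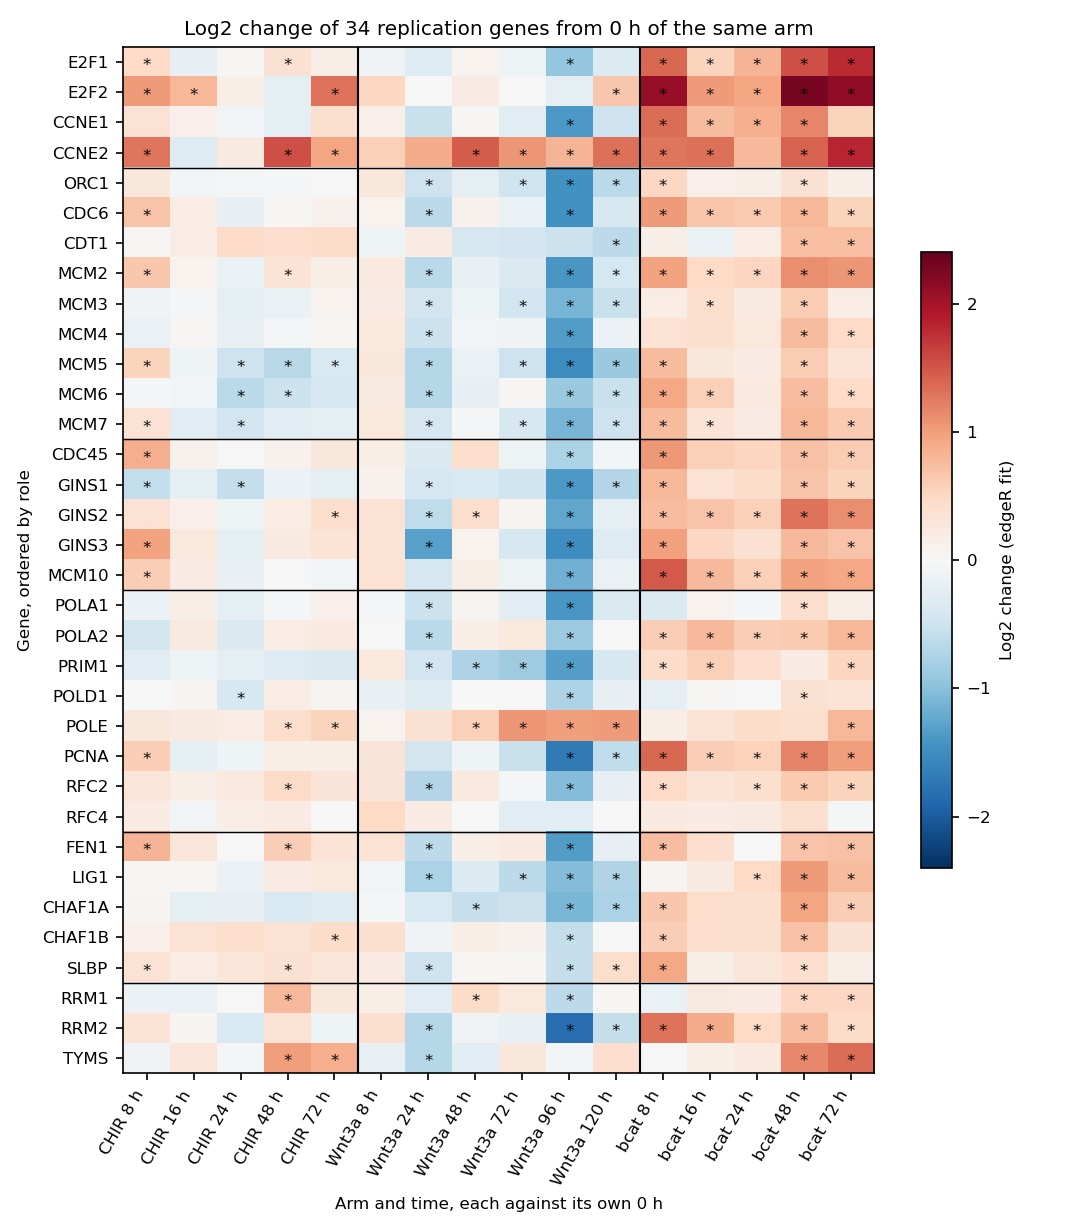
Log2 change of each of the 34 members from the 0 h of its own arm, in the 16 treated groups, with genes grouped by role and an asterisk for an adjusted p under 0.05. All asterisks in the bcat columns mark rises, 31 of them at 48 h, and the Wnt3a 96 h column holds 28 falls and 2 rises.

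The largest bcat changes of any member at any time were those of E2F2, CCNE2 and E2F1, which act at entry into S phase, followed by MCM10 and PCNA. E2F1 had 13.2 and 18.0 CPM at 0 h, 46.0 and 37.7 at 8 h, 22.0 and 25.2 at 16 h, 27.2 and 29.2 at 24 h, 45.3 and 49.5 at 48 h, and 56.1 and 55.0 at 72 h. Every treated E2F1 library lay above both 0 h libraries, with log2 changes of 1.38 ± 0.17 at 8 h (adjusted p = 3.8e-07) and 1.78 ± 0.17 at 72 h (adjusted p = 8.3e-10). E2F2 had 2.94 and 2.89 CPM at 0 h, 12.7 and 11.8 at 8 h, 5.92 and 5.90 at 16 h, 5.63 and 5.63 at 24 h, 14.8 and 13.5 at 48 h, and 13.4 and 12.02 at 72 h. Its log2 changes of 2.08 ± 0.31 at 8 h (adjusted p = 1.1e-05) and 2.29 ± 0.31 at 48 h (adjusted p = 1.4e-06) are over about 3 CPM at 0 h. CCNE1 had 27.9 and 32.4 CPM at 8 h, against 6.76 and 14.9 CPM at 0 h (1.34 ± 0.24, adjusted p = 0.0001). Its 0 h libraries disagree, and without bcat 0 h replicate 2 the change was 2.15. CCNE2 reached 6.54 and 4.85 CPM at 72 h, against 1.18 and 1.82 CPM at 0 h (1.83 ± 0.39, adjusted p = 0.00059).

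Of 9 licensing genes 6 rose at 8 h and all 9 at 48 h, and the 5 helicase activators rose at both times. CDC6, which brings the MCM ring to origins, had 83.5 and 102 CPM at 8 h, against 42.6 and 47.3 CPM at 0 h (1.03 ± 0.17, adjusted p = 3.4e-05). MCM2, a subunit of that ring, had 117 and 131 CPM at 0 h, 244 and 241 at 8 h, 167 and 178 at 16 h, 179 and 178 at 24 h, 261 and 278 at 48 h, and 282 and 239 at 72 h. Its 16 and 24 h libraries thus lay between those at 0 h and those at 8 h. MCM10, which helps activate the helicase, changed by 1.47 ± 0.19 at 8 h (adjusted p = 8.6e-07) with 80.05 and 73.2 CPM at 8 h, against 26.5 and 28.5 CPM at 0 h. GINS2 had its largest change at 48 h (1.30 ± 0.15, adjusted p = 4.8e-08). At 8 h CDT1, MCM3 and MCM4 were not called, with changes of 0.15 ± 0.22, 0.18 ± 0.11 and 0.35 ± 0.15 (adjusted p = 0.72, 0.31 and 0.11).

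Among the polymerase, clamp and loader genes 4 of 8 rose at 8 h, namely POLA2, PRIM1, PCNA and RFC2. PCNA had 228 and 266 CPM at 8 h, against 85.6 and 102 CPM at 0 h (1.38 ± 0.17, adjusted p = 7.4e-07), and no libraries of the groups overlapped. POLA2, the accessory subunit of polymerase alpha, had 43.3 and 38.6 CPM at 8 h, against 17.1 and 34.8 CPM at 0 h (0.58 ± 0.19, adjusted p = 0.025), and was called at every bcat time, but at 8 h not without 0 h replicate 1 (0.26) or 8 h replicate 1 (0.49). Without 0 h replicate 2 the POLA2 change was 1.27. PRIM1, the primase, had 53.8 and 59.0 CPM at 8 h, against 39.4 and 42.7 CPM at 0 h (0.45 ± 0.16, adjusted p = 0.043), a call lost without any 1 of the 4 libraries (0.38 to 0.51). The catalytic subunits POLA1, POLD1 and POLE were not called at 8 h, with changes of −0.35 ± 0.13, −0.23 ± 0.13 and 0.15 ± 0.16 (adjusted p = 0.066, 0.27 and 0.58). POLE, of polymerase epsilon, did rise at 72 h, with 90.9 and 79.4 CPM, against 52.3 and 46.0 CPM at 0 h (0.81 ± 0.16, adjusted p = 0.0002). RFC4, a subunit of the clamp loader, is the only member that was called against 0 h at no time in any arm.

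SLBP had its highest bcat level at 8 h. It had 36.2 and 33.1 CPM at 0 h, 63.5 and 67.4 at 8 h, 39.3 and 36.1 at 16 h, 42.7 and 41.5 at 24 h, 48.7 and 41.3 at 48 h, and 40.2 and 36.5 at 72 h, so the 8 h libraries lay well above all others of the arm (0.93 ± 0.12, adjusted p = 1.8e-06). SLBP was also called higher at 48 h (0.40 ± 0.12, adjusted p = 0.020), a call lost without 0 h replicate 2 (0.32) or 48 h replicate 1 (0.26). RRM2 had 192 and 182 CPM at 8 h, against 67.9 and 83.2 CPM at 0 h (1.29 ± 0.16, adjusted p = 5.6e-07). TYMS, thymidylate synthase, moved late: its change was −0.02 ± 0.18 at 8 h (adjusted p = 0.99) and 1.34 ± 0.18 at 72 h (adjusted p = 8.7e-07), with 96.6 and 87.1 CPM at 72 h, against 34.1 and 38.0 CPM at 0 h. Between times of the arm, 15 members rose and 0 fell from 24 to 48 h (4.64% of all genes rose), of which E2F1, E2F2, MCM2, MCM7, GINS2, FEN1 and TYMS held with each library left out. That count was 8 without 24 h replicate 1 or 2 and 9 without 48 h replicate 1. From 48 to 72 h only MCM3 changed (−0.43 ± 0.11, adjusted p = 0.016, 6.18% of all genes called), a call lost without 48 h replicate 1 (−0.36) or 72 h replicate 2 (−0.28), while 2 members were called without 72 h replicate 1.

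**Figure D3:**
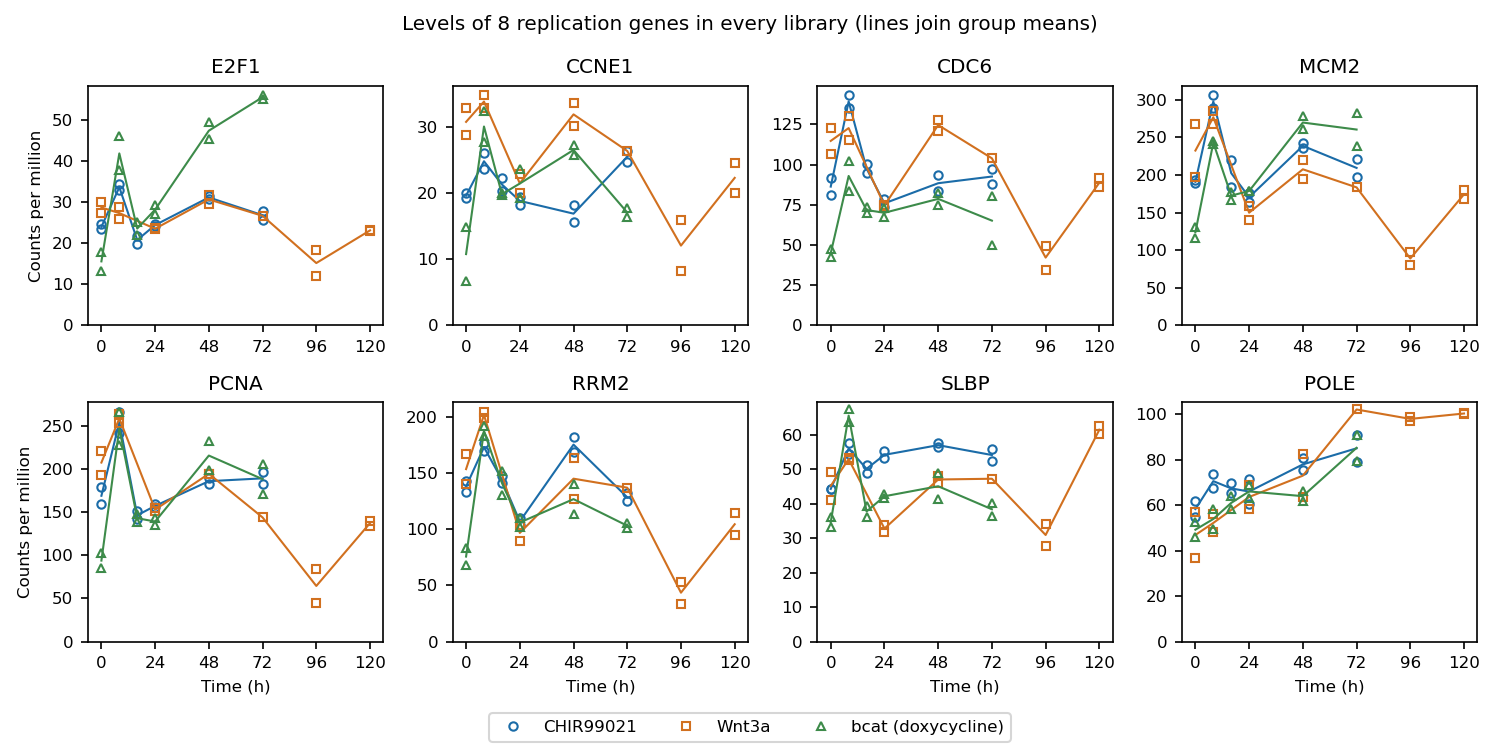
Level in CPM of 8 members in every library by time, with triangles for bcat, circles for CHIR and squares for Wnt3a cultures and lines through the group means, on linear axes that start at 0. For E2F1, CCNE1, CDC6, MCM2, PCNA and RRM2 the bcat mean is higher at 8 h than at 0 or 16 h and the Wnt3a mean is lowest at 96 h, and POLE is highest at 72 to 120 h in the Wnt3a arm.

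In the CHIR arm 13 members rose at 8 h, 5 fell at 24 h, and 9 and 6 rose at 48 and 72 h. The summed level of the members was 3346, 3884, 3337, 2917, 3523 and 3490 CPM at 0, 8, 16, 24, 48 and 72 h. All libraries at 8 h lay above all those at 0 and 16 h for 17 members (50%), a pattern of 15.6% of all genes. At 8 h 13 of 34 members rose and 1 fell, against 9.2% and 11.7% of all genes, with a member median of 0.28. The risers were 3 of 4 genes of initiation control, 4 of 9 of licensing, 3 of 5 helicase activators, 1 of 8 polymerase, clamp and loader genes, 2 of 5 of joining and assembly, and 0 of 3 of nucleotide supply. Of the calls, E2F2, CCNE2, CDC6, MCM2, MCM5, CDC45, GINS3 and FEN1 held with each library left out, and the count of 14 became 9 when replicate 1 of CHIR 0 h was left out and 8 when replicate 1 of CHIR 8 h was. All 13 genes that rose were also among the 24 of the bcat arm at 8 h, which is 100% of the CHIR list and 54.2% of the bcat list. Those comparisons share no library, but both were fitted in 1 model and both arms changed medium when treatment began. Of all 34 members 70.6% rose at bcat 8 h, and the same overlap was not counted over all genes. GINS3, of the helicase complex, had 25.1 and 22.1 CPM at 8 h, against 12.1 and 12.1 CPM at 0 h (0.97 ± 0.16, adjusted p = 2.9e-05). FEN1, the flap nuclease, had 150 and 148 CPM at 8 h, against 86.3 and 83.4 CPM at 0 h (0.81 ± 0.13, adjusted p = 2.6e-05). CDC6 had 135 and 143 CPM, against 81.1 and 91.4 CPM at 0 h (0.69 ± 0.15, adjusted p = 0.0012). The groups did not overlap for any of these 3.

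GINS1 went the other way from its partner GINS3 at CHIR 8 h. It had 68.1 and 76.1 CPM at 8 h, against 104 and 111 CPM at 0 h (−0.58 ± 0.15, adjusted p = 0.0036), a call lost without 8 h replicate 1, when the change was −0.50 (adjusted p = 0.073). PCNA had 267 and 242 CPM at 8 h, against 159 and 179 CPM at 0 h (0.59 ± 0.16, adjusted p = 0.0079). That call was lost without 0 h replicate 1 (0.51, adjusted p = 0.097) or 8 h replicate 1 (0.52, adjusted p = 0.086), although the groups did not overlap. E2F1, with 34.4 and 32.9 CPM at 8 h, against 23.4 and 24.6 CPM at 0 h, changed by 0.49 ± 0.14 (adjusted p = 0.015), and was not called without 0 h replicate 1 (0.45), 0 h replicate 2 (0.52) or 8 h replicate 1 (0.45).

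At CHIR 16 h 1 rose and 0 fell (6.55% and 9.34% of all genes), where 1 was lower at an unadjusted p under 0.05 and 1 by DESeq2. The riser, E2F2 (0.80 ± 0.24, adjusted p = 0.019), was not called without 0 h replicate 1 (0.76) or 2 (0.85) or 16 h replicate 1 (0.59). At 24 h 0 rose and 5 fell (5.91% and 8.61% of all genes). They were MCM5, MCM6, MCM7, GINS1 and POLD1, and MCM7 alone held with each library left out, at 223 and 241 CPM, against 313 and 328 CPM at 0 h (−0.46 ± 0.10, adjusted p = 0.0013). MCM6 had 107 and 85.1 CPM at 24 h, against 145 and 154 CPM at 0 h (−0.64 ± 0.15, adjusted p = 0.0032), and was not called without 24 h replicate 2 (−0.48, adjusted p = 0.12). The count was 2 without 0 h replicate 2 and 3 without 24 h replicate 1 or 2. At an unadjusted p under 0.05, 3 were higher at 24 h, and DESeq2 called 2 higher.

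By 48 h of CHIR 9 members rose and 2 fell, or 26.5% and 5.88%, against 15.7% and 18.1% of all genes. At 72 h 6 rose and 1 fell, or 17.6% and 2.94%, against 11.5% and 13.4% of all genes. At both times a larger share of the members than of all genes rose, and a smaller share fell. In either direction 11 and 7 members were called, no larger a share than the 33.9% and 24.9% of all genes. DESeq2's test called 14 and 12 members, a larger share than its 7950 and 5969 of 24304 genes. TYMS and RRM1, of nucleotide supply, had the smallest adjusted p at 48 h. TYMS had 84.2 and 87.3 CPM at 48 h, against 43.4 and 41.9 CPM at 0 h (1.01 ± 0.17, adjusted p = 1.4e-05), and RRM1, the large subunit of ribonucleotide reductase, had 267 and 245 CPM, against 139 and 160 CPM at 0 h (0.78 ± 0.13, adjusted p = 2e-05). MCM5 fell, with 116 and 132 CPM at 48 h, against 194 and 198 CPM at 0 h (−0.66 ± 0.13, adjusted p = 0.00022). CCNE2 had 7.70 and 5.60 CPM at 48 h, against 2.11 and 2.43 CPM at 0 h (1.55 ± 0.30, adjusted p = 0.00011). With RFC2 and FEN1 these held without any 1 library, and the count of 11 was 6 without 0 h replicate 2. At 72 h E2F2 (1.31 ± 0.24, adjusted p = 7.3e-05) and TYMS (0.86 ± 0.17, adjusted p = 0.00017) held, and the count of 7 was 3 with any 1 of the 4 libraries left out. E2F2 had 5.88 and 6.28 CPM at 0 h, 12.5 and 12.3 at 8 h, 12.3 and 9.15 at 16 h, 7.27 and 6.52 at 24 h, 4.36 and 6.26 at 48 h, and 15.2 and 14.97 at 72 h. Its libraries at 24 and 48 h thus lay close to those at 0 h, between high values on either side.

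Tests between CHIR times gave 10 members that rose and 0 that fell from 24 to 48 h (12.7% of all genes rose), with MCM2, FEN1, RRM1, RRM2 and TYMS kept whichever library was left out and a count of 6 without 24 h replicate 1 or 2. From 48 to 72 h 1 rose and 2 fell (13% of all genes called). E2F2 was the riser (1.52 ± 0.24, adjusted p = 3.3e-05) and held, and the count of 3 was 1 without 48 h replicate 1 or 72 h replicate 2.

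The Wnt3a arm had the largest falls. At 8 h 0 members rose and 0 fell, against 2.28% and 1.18% of all genes (3.45% in either direction). At an unadjusted p under 0.05, 8 were higher and 0 lower, DESeq2 called 0, and without Wnt3a 0 h replicate 2 edgeR called 5. The member median at 8 h was 0.22, where that of all genes was 0.04. All libraries at 8 h lay above all those at 0 and 24 h for 19 members (55.9%), a pattern of 14.4% of all genes. At 24 h 0 rose and 20 fell, against 9.32% and 10.9% of all genes (20.2% in either direction), with a member median of −0.48, where 2 were higher at an unadjusted p under 0.05 and 1 by DESeq2. At 48 h 4 rose and 2 fell (7.58% and 8.56%), and at 72 h 2 rose and 6 fell (8.43% and 7.94%). At 96 h 2 rose and 28 fell, against 18.8% and 21% of all genes (39.9% in either direction), with a member median of −1.11. At 120 h 4 rose and 12 fell (12.2% and 15.6%), with a median of −0.32. These comparisons share the Wnt3a 0 h libraries. The summed level was 3590, 4194, 2620, 3494, 3138, 1696 and 2834 CPM at 0, 8, 24, 48, 72, 96 and 120 h.

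The 96 h fall held best. Of its 30 calls 26 were kept with each library left out in turn, and the count ranged from 27 to 32. RRM2 had 33.7 and 53.3 CPM at 96 h, against 140 and 166 CPM at 0 h (−1.83 ± 0.16, adjusted p = 1.7e-10), and no later or earlier library of the arm was as low. PCNA had 44.7 and 84.3 CPM at 96 h, against 194 and 221 CPM at 0 h (−1.69 ± 0.17, adjusted p = 3.7e-09). MCM5 had 84.6 and 102 CPM at 96 h, against 202 and 323 CPM at 0 h (−1.51 ± 0.14, adjusted p = 4.3e-10). All libraries at 96 h lay below all those at 0, 72 and 120 h for 26 of the 34 members (76.5%), a pattern shown by 14% of all genes. CDC6 had 34.7 and 49.6 CPM at 96 h, against 107 and 123 CPM at 0 h (−1.45 ± 0.16, adjusted p = 1.6e-08), and MCM2 had 79.9 and 98.1 CPM, against 197 and 267 CPM at 0 h (−1.40 ± 0.13, adjusted p = 4.3e-10). E2F1 had 12.003 and 18.4 CPM, against 27.5 and 30.0 CPM at 0 h (−0.93 ± 0.16), and CCNE1 had 8.28 and 15.9 CPM, against 28.8 and 32.9 CPM (−1.37 ± 0.22). None of these groups overlapped. The fall reached every role, with all 6 MCM ring genes (−0.89 to −1.51), all 5 helicase activators (−0.77 to −1.49), POLA1 (−1.40 ± 0.14), FEN1 (−1.34 ± 0.14) and CHAF1A (−1.10 ± 0.17), of which CDC45 (−0.77) was lost without 96 h replicate 1 (−0.34). SLBP fell by 0.57 ± 0.12 (adjusted p = 0.00022), with 27.6 and 34.2 CPM at 96 h, against 41.1 and 49.2 CPM at 0 h, and missed the threshold without 0 h replicate 2 (−0.41, adjusted p = 0.0502). The other calls lost with 1 library were CCNE2, without 0 h replicate 2 (0.56) or 96 h replicate 2 (0.21), and CHAF1B, without 0 h replicate 2 (−0.16) or 96 h replicate 1 (−0.34).

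POLE and CCNE2 were the 2 members that rose at 96 h, and the POLE call held whichever library was left out. POLE had 36.9 and 56.9 CPM at 0 h, 48.2 and 56.1 at 8 h, 58.1 and 69.0 at 24 h, 63.5 and 82.3 at 48 h, 102 at 72 h, 96.9 and 98.9 at 96 h, and 101 and 100 at 120 h. All libraries from 24 h on lay above those at 0 h, with log2 changes of 1.05 ± 0.18 at 72 h (adjusted p = 5.4e-05), 0.99 ± 0.15 at 96 h (adjusted p = 4.1e-06) and 1.03 ± 0.15 at 120 h (adjusted p = 4.7e-06). The calls at 96 and 120 h held with each library left out. The 72 h call held without either 0 h library, but the only 72 h library could not be left out. TYMS had 24.8 and 34.6 CPM at 96 h, against 33.3 and 29.7 CPM at 0 h, with a change of −0.06 ± 0.18 (adjusted p = 0.82). The other members not called at 96 h were E2F2, CDT1 and RFC4.

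**Figure D4:**
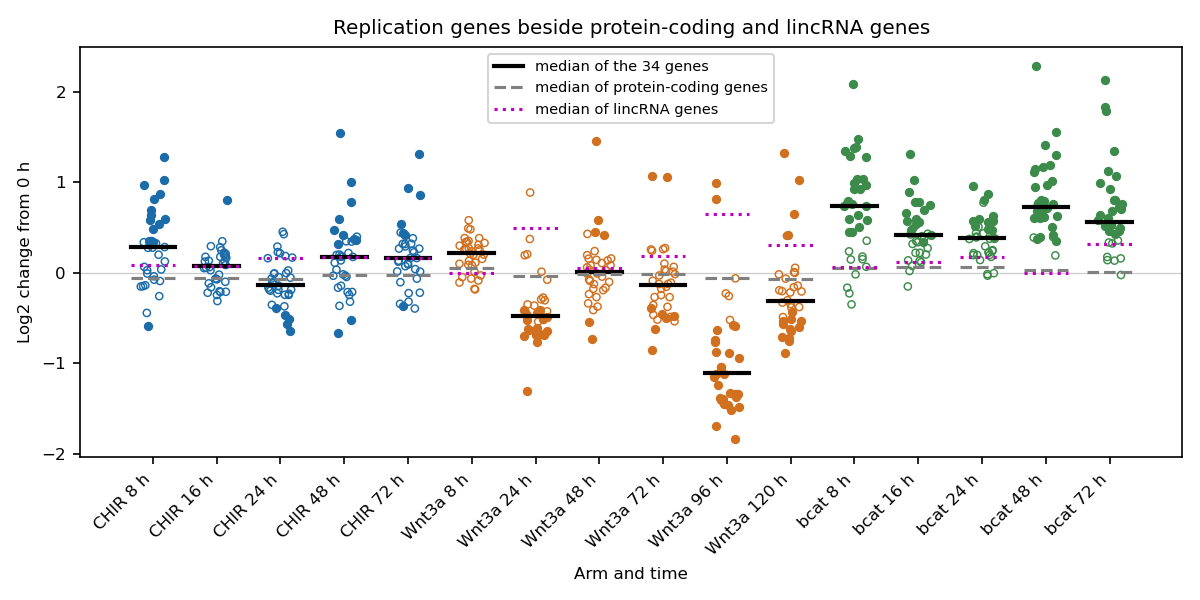
Log2 change of each member from the 0 h of its own arm at each time, with 1 point per gene, filled where called; the black line is the median of the 34 members, the grey dashed line that of protein-coding genes and the magenta dotted line that of lincRNA genes. At Wnt3a 96 h the member median is −1.11 and that of lincRNA genes 0.65, and at bcat 8 h the member median is 0.74.

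The fall at 24 h of Wnt3a was smaller and rested more on 1 library, 0 h replicate 2. That is the deeper library of its pair (65.7 M), and leaving it out left 0 h replicate 1 alone, with 2.45 M. With both kept, the calls in either direction numbered 22 by DESeq2's test, 23 with no filter and 18 with only the libraries of the arm in the fit. MCM6, GINS3, RFC2 and LIG1 held with each library left out, and without Wnt3a 0 h replicate 2 the count of 20 was 7. GINS3 had 9.47 and 6.78 CPM at 24 h, against 19.7 and 19.9 CPM at 0 h (−1.30 ± 0.17, adjusted p = 1.9e-06). MCM6 had 117 and 99.5 CPM, against 165 and 184 CPM at 0 h (−0.69 ± 0.15, adjusted p = 0.0014). The 24 h libraries lay below all those at 0, 8 and 48 h for 25 members (73.5%), a pattern of 12.4% of all genes. The same library carried much of the other counts: without Wnt3a 0 h replicate 2 they were 1 at 48 h, 2 at 72 h and 9 at 120 h, and at 48 h also 3 and 2 without 48 h replicate 1 or 2. At 48 h no call held with each library left out, and at 120 h ORC1, MCM5, MCM7, POLE, LIG1 and CHAF1A did. At 72 h POLE and LIG1 held without either 0 h library, while the only 72 h library could not be left out.

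Other measures also differed in the low Wnt3a groups. The median change of 672 lincRNA genes minus that of 15874 protein-coding genes was 0.53 at 24 h, 0.70 at 96 h and 0.38 at 120 h, and from −0.06 to 0.20 at the other Wnt3a times. Mitochondrial transcripts held 16.6 and 14.4% of counts at 24 h and 14.5 and 14.8% at 96 h, against 7.72 and 6.86% at 0 h. Such values also occurred where members rose. Mitochondrial shares were 14.7 and 11.8% at CHIR 8 h, against 7.68 and 8.01% at CHIR 0 h, and 13 members rose there. The lincRNA difference was 0.30 at bcat 72 h, where 25 members rose. The part of these measures in the result was not tested. With scaling factors from protein-coding genes alone the member median at 96 h was −1.02, and 28 members fell and 2 rose.

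By 120 h members had moved apart. MCM5 was still low, at 153 and 135 CPM, against 202 and 323 CPM at 0 h (−0.88 ± 0.14, adjusted p = 7.8e-06; −0.49 without 0 h replicate 2). LIG1, the replicative ligase, had 49.1 and 44.6 CPM at 120 h, against 79.9 and 74.7 CPM at 0 h (−0.72 ± 0.14, adjusted p = 0.00024). SLBP was higher, with 60.3 and 62.5 CPM at 120 h, against 41.1 and 49.2 CPM at 0 h (0.42 ± 0.12, adjusted p = 0.0078), but not called without 0 h replicate 1 (0.32). CCNE2, with 6.29 and 7.28 CPM at 120 h, against 3.23 and 2.57 CPM at 0 h (1.32 ± 0.33, adjusted p = 0.0026), was not called without 0 h replicate 2 (1.07). CCNE2 at 48 h (1.46 ± 0.32, adjusted p = 0.0016), the largest Wnt3a rise of a member, was likewise lost without that library (1.20, adjusted p = 0.15), and E2F2 at 120 h, with 13.7 and 13.0 CPM, against 4.85 and 10.1 CPM at 0 h (0.65 ± 0.25, adjusted p = 0.048), without 0 h replicate 1 (0.41), 120 h replicate 1 (0.62) or 120 h replicate 2 (0.71). Without 0 h replicate 2 the E2F2 change was 1.46.

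Between times of the Wnt3a arm, from 8 to 48 h 2 members rose and 10 fell (14.7% of all genes called). ORC1, which marks origins, and PRIM1 were the calls kept with each library left out, and the count of 12 was 3 without 8 h replicate 1 or 2 or 48 h replicate 1 and 4 without 48 h replicate 2. PRIM1 had 32.0 and 30.3 CPM at 48 h, against 65.9 and 57.1 CPM at 8 h (−0.98 ± 0.15, adjusted p = 1.6e-05). From 48 to 120 h 3 rose and 11 fell (14.8%), with MCM5, MCM7 and GINS2 kept. The count of 14 was 6 and 5 without 48 h replicate 1 or 2, and 7 without either 120 h library.

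The difference between arms was tested as the change in one arm minus the change in the other. At 48 h the bcat change exceeded the CHIR change for 16 members and was smaller for 0 (16.5% of all genes called), of which 14 held with each library left out. E2F2 was the largest, with 14.8 and 13.5 CPM at bcat 48 h, against 4.36 and 6.26 CPM at CHIR 48 h (difference of changes 2.50 ± 0.40, adjusted p = 3e-05). MCM5 had 206 and 204 CPM at bcat 48 h, against 116 and 132 CPM at CHIR 48 h (1.27 ± 0.19, adjusted p = 1.4e-05). CHAF1A, a histone chaperone subunit, had 117 and 90.0 CPM at bcat 48 h, against 47.3 and 63.8 CPM at CHIR 48 h (1.32 ± 0.24, adjusted p = 0.00018). For all 3 genes the bcat 48 h libraries themselves lay above the CHIR 48 h libraries. The count ranged from 15 to 18 with 1 library left out.

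At 8 h the bcat change exceeded the CHIR change for 7 members (2.7% of all genes called). GINS1 held with each library left out, at 106 and 126 CPM in bcat cultures, against 68.1 and 76.1 CPM in CHIR cultures (difference of changes 1.38 ± 0.21, adjusted p = 0.00025). The count was 1 without CHIR 0 h replicate 2, CHIR 8 h replicate 1 or bcat 0 h replicate 1, 2 without bcat 8 h replicate 1 and 3 without CHIR 0 h replicate 1. MCM10 had 80.05 and 73.2 CPM at bcat 8 h, against 80.1 and 76.6 CPM at CHIR 8 h. Its larger bcat change (0.89 ± 0.25, adjusted p = 0.048) thus started from a lower 0 h level and ended at an overlapping one, and it was not called without any 1 of the 8 libraries (0.81 to 0.96). The members' summed level was 3703 ± 5.16 CPM at bcat 8 h and 3884 ± 56.7 CPM at CHIR 8 h (SD, n = 2 each).

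At 24 h 10 members (4.95% of all genes called) and at 72 h 11 members (7.2%) had a larger change in the bcat than in the CHIR arm. MCM7 and GINS1 held at 24 h, and E2F1, MCM2 and MCM7 at 72 h, with each library left out. E2F1 had 56.1 and 55.0 CPM at bcat 72 h, against 27.9 and 25.8 CPM at CHIR 72 h (1.62 ± 0.22, adjusted p = 1.3e-05). MCM7 had mean levels of 231.8 CPM at bcat 24 h and 232.2 CPM at CHIR 24 h, over 201.5 and 320.6 CPM at 0 h. GINS1 had means of 89.9 and 72.9 CPM at 24 h, over 65.6 and 108 CPM. The members' summed level was 3027 ± 13.5 CPM at bcat 24 h and 2917 ± 58.1 CPM at CHIR 24 h (SD, n = 2 each). By 72 h it was 3618 ± 371 and 3490 ± 146 CPM. At 24 h the count was 2 without CHIR 0 h replicate 2, bcat 0 h replicate 1 or bcat 24 h replicate 1, 3 or 4 when replicate 2 or 1 of CHIR 24 h was left out, and 5 with CHIR 0 h replicate 1 or bcat 24 h replicate 2 left out. At 72 h it was 3 without bcat 72 h replicate 1, 5 without CHIR 0 h replicate 2 or CHIR 72 h replicate 2, and 6 without bcat 0 h replicate 1.

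Few members were called for a difference between CHIR and Wnt3a. The members' median difference of changes, CHIR minus Wnt3a, was 0.10, 0.30, 0.18 and 0.28 at 8, 24, 48 and 72 h. The median of all genes was −0.06, −0.05, 0 and −0.01. Unadjusted p under 0.05 was reached by 10 higher and 0 lower at 24 h and by 6 higher and 1 lower at 48 h. At 8 h 0 were called (4.65% of all genes), with 8 at an unadjusted p under 0.05, 6 by DESeq2 and 4 without Wnt3a 0 h replicate 2. At 24 h 5 had a higher change under CHIR (9.95% of all genes called), of which GINS3, RFC2 and SLBP held, and the count was 3 without either CHIR 0 h library, Wnt3a 0 h replicate 2 or either Wnt3a 24 h library. RFC2, of the clamp loader, had 56.4 and 52.7 CPM at CHIR 24 h, against 34.8 and 27.6 CPM at Wnt3a 24 h (0.92 ± 0.17, adjusted p = 0.00056). SLBP had 55.2 and 53.1 CPM at CHIR 24 h, against 33.7 and 31.8 CPM at Wnt3a 24 h (0.78 ± 0.16, adjusted p = 0.0017). At 48 h 2 differed (16.1%): TYMS, with 84.2 and 87.3 CPM at CHIR 48 h, against 22.3 and 28.5 CPM at Wnt3a 48 h (1.27 ± 0.25, adjusted p = 0.0003), and MCM2 (0.50 ± 0.17, adjusted p = 0.049), which was lost without any 1 of 6 of the 8 libraries (0.25 to 0.52). At 72 h, with 1 Wnt3a library, which could not be left out, 2 differed (8.99%). LIG1 held (0.87 ± 0.22, adjusted p = 0.0077), and E2F2 (1.29 ± 0.38, adjusted p = 0.026) was not called without Wnt3a 0 h replicate 2 (0.48) or any 1 CHIR library (1.25 to 1.34). Those counts of 2 moved to 1 or 4 at 48 h, the 4 without Wnt3a 0 h replicate 1 or 48 h replicate 2, and to 1 or 5 at 72 h, the 5 without Wnt3a 0 h replicate 1.

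Genes around the 34 members gave the setting. At Wnt3a 96 h, where 18.8% of all genes rose and 21% fell, 13 of 17 further origin and helicase genes fell and 0 rose (median −0.65), led by GMNN, the inhibitor of CDT1 (−1.49 ± 0.18, adjusted p = 5.2e-08). Of 27 further fork and synthesis genes 24 fell and 1 rose (−0.80), among them CLSPN, a checkpoint adaptor (−1.68 ± 0.18, adjusted p = 9.7e-09), and RFC3, of the clamp loader (−1.42 ± 0.13, adjusted p = 4.4e-10). Of 16 further nucleotide genes 14 fell and 0 rose (−0.89), among them DUT, the dUTPase (−1.28 ± 0.18, adjusted p = 1e-06), but the largest fall was SAMHD1 (−2.31 ± 0.19, adjusted p = 9.1e-11), which breaks down nucleotides. Of 20 checkpoint and fork repair genes 16 fell and 1 rose (−0.83), led by the helicase gene BLM (−1.67 ± 0.17, adjusted p = 2.9e-09). At the same time 19 of 24 genes of G2 and mitosis fell and 0 rose (−0.59). The median of all genes was 0.07 in that comparison.

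The 77 histone genes tested were taken by symbol, as those that begin with HIST1H, HIST2H, HIST3H or HIST4H. Of these 68 fell and 0 rose at Wnt3a 96 h (median −1.55), 59 fell and 1 rose at 24 h (−0.80) and 63 fell and 0 rose at 120 h (−0.85). Of all genes 21, 10.9 and 15.6% fell at these times. In the bcat arm 10 rose and 2 fell at 8 h (0.12), which is 13% and 2.6% of the histone genes beside 10.7% and 8.01% of all genes. At the later bcat times 36 rose and 0 fell at 16 h (0.53), 4 rose and 0 fell at 24 h (0.16), 56 rose and 2 fell at 48 h (1.01) and 59 rose and 2 fell at 72 h (1.11), where 6.23, 6.87, 11.1 and 13.6% of all genes rose. At CHIR 48 h 41 rose and 2 fell (0.49), or 53.2% and 2.6%, beside 15.7% and 18.1% of all genes, and at CHIR 72 h 0 rose and 4 fell (0.00), beside 11.5% and 13.4%. The histone share that rose at bcat 8 h was thus far below the 70.6% of the members. At CHIR 48 h both lists leaned upward, with 26.5% of the members rising and 5.88% falling. Whether each gene of this list is a replication-dependent histone gene was not checked. Replication-dependent histone transcripts lack a poly(A) tail and are near-identical copies in clusters, so total RNA can hold them but the split of reads among copies is uncertain. SLBP, which binds them, had its bcat peak at 8 h and was at 40.2 and 36.5 CPM at bcat 72 h, when the histone count was highest.

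Mitotic genes did not share the early rise. At 8 h 19 of 24 G2 and mitosis genes fell and 0 rose under CHIR (median −0.54), and 11 fell and 0 rose in the bcat arm (−0.38), where 11.7% and 8.01% of all genes fell, while the replication members rose there. TOP2A, the mitotic topoisomerase, changed by −0.85 ± 0.12 at bcat 8 h (adjusted p = 8.9e-06) and −1.17 ± 0.12 at CHIR 8 h (adjusted p = 3.4e-08). Of 25 genes of G1-S control tested, 10 rose and 5 fell at CHIR 8 h (9.2% and 11.7% of all genes), with CCND1, cyclin D1, at 2.03 ± 0.17 (adjusted p = 5.4e-10). The CDK inhibitors moved both ways there, with CDKN2B at 4.23 ± 1.20 (adjusted p = 0.012), a call lost without 0 h replicate 2 (2.98) or 8 h replicate 1 (3.11) and larger without 0 h replicate 1 (7.25) or 8 h replicate 2 (4.79), and CDKN1A, the CDK inhibitor p21, at −1.37 ± 0.22 (adjusted p = 3.2e-05). At bcat 48 h 11 rose and 0 fell (11.1% and 10.1% of all genes), with CCND1 at 3.14 ± 0.19 (adjusted p = 3.2e-13). At Wnt3a 96 h 9 rose and 10 fell (18.8% and 21% of all genes). The inhibitors CDKN2B (4.29 ± 1.34, adjusted p = 0.012, a call lost without 0 h replicate 2, at 6.80), CDKN1C (1.92 ± 0.27, adjusted p = 1.1e-06) and CDKN1A (1.62 ± 0.24, adjusted p = 3.5e-06) rose, and CDC25A, the phosphatase that activates CDK2, was at −1.82 ± 0.14 (adjusted p = 3e-11).

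**Figure D5:**
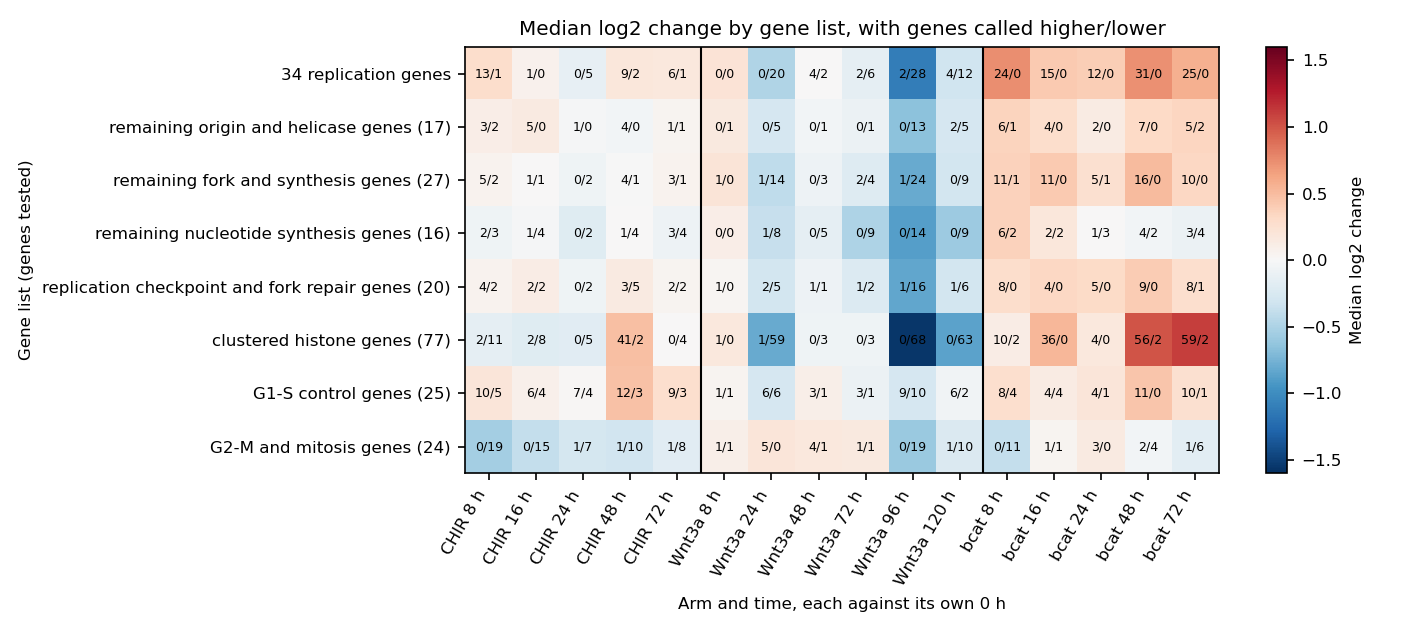
Median log2 change from the 0 h of each arm for the members and the other gene lists, by time, with the number of genes called higher and lower in each cell. At Wnt3a 96 h all replication and histone lists have medians from −0.65 to −1.55, and at 8 h of bcat and CHIR the member cell is positive while the G2 and mitosis cell is negative.

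Changes were set beside the promoter letters shown above. At bcat 8 h the 13 members with an E2F match had a median change of 0.58, with 7 that rose, and the 18 without one a median of 0.77, with 15 that rose. At CHIR 8 h the medians were 0.04 (4 rose) and 0.30 (7 rose and 1 fell), and at Wnt3a 96 h −0.93 (9 fell and 1 rose) and −1.24 (17 fell). At bcat 72 h they were 0.80 (11 rose) and 0.53 (12 rose). A match in these 250 bases thus did not go with a larger change at 8 or 96 h, and no match says only that these letters are not in this window.

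The 34 genes lie on 18 chromosomes. In GENCODE release 29, 18 share no exon sequence with another gene, 6 overlap one on the same strand, among them PRIM1, RRM2 and FEN1, and 12 one on the opposite strand, where a gene can be in both of the last groups. How reads of overlapping genes were split is not given in the sources used here. Annotated pseudogene copies of PCNA, FEN1, RRM2 and TYMS reached at most 0.408 CPM in any library.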

How the data were processed

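Total RNA of H9 cultures had been sequenced from stranded libraries, and the submitters' processing notes name kallisto 0.43.0. For the counts, genome build and annotation: not given in the sources used here. The deposited columns hold kallisto's estimated counts multiplied by 1 constant per library, as the values show (constants 0.265 to 6.58), and were divided by it and rounded. A whole number, to within 0.1, then resulted for 57.3 to 81.2% of the values no higher than 20 counts. Deposited totals were 15.1 to 42.9 M. Of 38 deposited libraries 37 were used, since both Wnt3a 72 h columns were identical. Depth limits precision most in Wnt3a 0 h replicate 1, and errors from few replicates come on top of counting error.

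Genes passing filterByExpr (24304 of 43412) were fitted in 1 model of all 37 libraries and 19 groups with edgeR 4.0.16 (R 4.3.3, TMM, quasi-likelihood F test, trended dispersions, robust, 18 residual degrees of freedom). P-values were Benjamini-Hochberg adjusted within each comparison and called under 0.05. The standard error is the log2 change over the square root of F. The fit was tested on simulated data. Alternatives used DESeq2 1.42.0, its size factors, no filter, undivided columns, a replicate block, fewer libraries and, added after seeing the data, TMM over protein-coding genes.

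The 34 members and the gene lists were chosen with earlier results of these data known. Values per library are given for the 3 members per arm and direction with the largest called change and for E2F1, CCNE1, CDC6, MCM2, PCNA, RRM2 and SLBP as leading members of their roles. From other lists at most 3 genes with the largest called change are named. Other members with values, such as GINS3, FEN1, MCM7, LIG1, POLA1, MCM10, RFC2, POLA2, PRIM1 and CHAF1A, were chosen after their values were seen.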

Additional observations from a re-analysis of the deposited data

Results flagged for a closer look

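The change from 0 h differed between arms by the test of that difference in 7 places. Between the bcat and CHIR arms 7 members differed at 8 h, led by GINS1 (difference of log2 changes 1.38 ± 0.21), 10 at 24 h, led by GINS1 (1.00 ± 0.21), 16 at 48 h, led by E2F2 (2.50 ± 0.40), and 11 at 72 h, led by E2F1 (1.62 ± 0.22), all with the larger change in the bcat arm. Between the CHIR and Wnt3a arms 5 members differed at 24 h, led by GINS3 (1.07 ± 0.24), 2 at 48 h, led by TYMS (1.27 ± 0.25), and 2 at 72 h, led by E2F2 (1.29 ± 0.38), all with the higher change in the CHIR arm. Values of the bcat arm stand over 0 h cultures in which 16 members were lower than at CHIR 0 h, and the line of that arm carries an integrated transgene, so line and treatment cannot be told apart there. Its libraries also differed in make-up. Mitochondrial transcripts held 0.369 to 1.55% of counts in the bcat arm and 7.68 to 14.7% in the CHIR arm. The median ribosomal RNA share was 18.9% in the bcat arm and 5.3% in the CHIR arm. The part of these shares in the differences was not tested.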

How the results depend on the processing

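Of 248 counts of members called under another setting, 206 stayed within 1.5 times, 13 were lower and 29 higher, and of 152 counts with 1 library left out 70, 76 and 6. Changes of single called genes were pooled with counts of members called in 1 direction, which gave 3654 results under another setting. Of these 3314 were the same, 282 weaker, 58 stronger and 0 reversed, and of 2076 with 1 library left out 1416, 645, 13 and 2. Same means that a gene kept its direction and call or that a count stayed within 1.5 times. Weaker means a lost call or a lower count, and stronger, possible for counts only, a higher count. The 2 reversals were low-count histone copies, HIST3H3 at Wnt3a 96 h (2.35 without Wnt3a 0 h replicate 2, and −6.85 to 2.35 over the libraries left out) and HIST2H2BB at bcat 72 h (0 without bcat 72 h replicate 1, and 0 to 7.59 over the libraries left out).

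With 1 library left out, the members called against 0 h ranged in the bcat arm over 17 to 24 (24 with all) at 8 h, 2 to 14 (15 with all) at 16 h, 1 to 8 (12 with all) at 24 h, 24 to 29 (31 with all) at 48 h, 15 to 23 (25 with all) at 72 h. In the CHIR arm the ranges were 8 to 13 (14 with all) at 8 h, 0 to 1 (1 with all) at 16 h, 2 to 4 (5 with all) at 24 h, 6 to 8 (11 with all) at 48 h, 3 to 3 (7 with all) at 72 h. In the Wnt3a arm they were 0 to 5 (0 with all) at 8 h, 7 to 22 (20 with all) at 24 h, 1 to 5 (6 with all) at 48 h, 2 to 11 (8 with all) at 72 h, 27 to 32 (30 with all) at 96 h, 9 to 16 (16 with all) at 120 h. Between times they were 8 to 13 (15 with all) for bcat 48 against 24 h, 0 to 2 (1 with all) for bcat 72 against 48 h, 6 to 8 (10 with all) for CHIR 48 against 24 h, 1 to 2 (3 with all) for CHIR 72 against 48 h, 3 to 4 (12 with all) for Wnt3a 48 against 8 h and 5 to 7 (14 with all) for Wnt3a 120 against 48 h. For bcat minus CHIR they were 1 to 6 (7 with all) at 8 h, 2 to 9 (10 with all) at 24 h, 15 to 18 (16 with all) at 48 h, 3 to 11 (11 with all) at 72 h, and for CHIR minus Wnt3a 0 to 4 (0 with all) at 8 h, 3 to 5 (5 with all) at 24 h, 1 to 4 (2 with all) at 48 h, 1 to 5 (2 with all) at 72 h. For bcat 0 h against CHIR 0 h they were 9 to 15 (17 with all).

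Counts against 0 h that moved by over 1.5 times under another setting were these. DESeq2's test called 4 at CHIR 16 h and 12 at CHIR 72 h. With only the libraries of the arm in the fit, 5, 10 and 17 were called at CHIR 16, 24 and 72 h, and 3 and 10 at Wnt3a 72 and 120 h. Undivided columns gave 1 at Wnt3a 8 h, and no filter 5 at Wnt3a 72 h. Without the 4 libraries that stood apart, 2 were called at bcat 16 h, 0 at bcat 24 h and 11 between bcat 0 h and CHIR 0 h. Between times, bcat 72 against 48 h gave 2 by DESeq2's test, its size factors or TMM over protein-coding genes and 3 with no filter, and bcat 48 against 24 h gave 9 without the 4 libraries. CHIR 72 against 48 h gave 5 by DESeq2 and 7 with the arm alone, Wnt3a 48 against 8 h 7 with no filter and 3 with the arm alone, and Wnt3a 120 against 48 h 4 with the arm alone. For bcat minus CHIR, 1, 3 and 6 were called at 8, 24 and 72 h without the 4 libraries. For CHIR minus Wnt3a at 8, 48 and 72 h, DESeq2's test called 6, 6 and 8, its size factors 5, 5 and 5, TMM over protein-coding genes 3, 4 and 5, the arms alone 2, 4 and 4, and leaving out the 4 libraries 2, 4 and 5, and undivided columns called 1 at 8 h and 4 at 48 h. The cause was not tested, beyond the fewer libraries in some fits.

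Splits whose share of higher calls moved by over 10 percentage points with the scaling or tool were CHIR 24 h (0 and 5; 2 and 5 with DESeq2's size factors or test, 2 and 4 with protein-coding TMM), CHIR 16 h (1 and 0; 3 and 1 by DESeq2), Wnt3a 72 h (2 and 6; 1 and 10 by DESeq2, 1 and 6 undivided), Wnt3a 120 against 48 h (3 and 11; 4 and 6 with size factors or protein-coding TMM), bcat 72 against 48 h (0 and 1; 1 and 1), CHIR 72 against 48 h (1 and 2; 3 and 2 by DESeq2, 2 and 2 with protein-coding TMM) and CHIR minus Wnt3a at 48 h (2 and 0; 5 and 1 by DESeq2, 3 and 1 undivided). Smaller moves included Wnt3a 24 h (0 and 20; 2 and 20 with size factors, 2 and 19 with protein-coding TMM, 1 and 21 by DESeq2) and bcat 8 h (24 and 0; 23 and 1 with size factors or DESeq2). Size factors shifted the median of all genes by 0.106 at Wnt3a 96 h, where the member median was then −1.03.

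The replicate numbers did not pair the samples: over 153 pairs of groups the median correlation of same-numbered deviations was 0.00554 (−0.125 to 0.153), with 3 over 0.1. With the replicate block 24 members were called at bcat 8 h and 29 at Wnt3a 96 h, and all 31 counts stayed within 1.5 times.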
